A study of Vitis rotundifolia with 18 samples.

Results

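Flavonols are colourless, ultraviolet-absorbing flavonoids of the berry skin, and they also act as copigments of anthocyanins. In the grapevine Vitis vinifera, the factor MYBF1 activates genes of flavonol synthase (FLS), the enzyme that turns dihydroflavonols into flavonols, and the glycosyltransferases GT5 and GT6 then attach sugars or glucuronic acid to the product. HY5 and its homologue HYH are bZIP transcription factors of light and ultraviolet-B signalling, known from Arabidopsis, and in Vitis vinifera they are linked to the light response of flavonol genes. The genes described here are 7 of the 27228 identifiers in the deposited tables: MYBF1 (VIT_07s0005g01210), the FLS genes VIT_18s0001g03470 and VIT_18s0001g03430, GT5 (VIT_11s0052g01600), GT6 (VIT_11s0052g01630), HY5 (VIT_04s0008g05210) and HYH (VIT_05s0020g01090). They are listed by identifier and name, with earlier results of these data known, and the tables themselves hold identifiers only.

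The tissue was the berry of the muscadine grape, Vitis rotundifolia, from the dark-fruited cultivar Noble and the bronze-fruited cultivar Carlos. Each cultivar was sampled at 3 numbered stages of the E-L scale of grapevine growth: bunch closure is E-L 32, veraison, when ripening begins, is E-L 35, and maturity is E-L 38. No treatment is named. The study asked which genes change as berries of these cultivars ripen. The 18 RNA libraries, 3 in each of the 6 groups, held 18919160 to 30843026 expected counts. The labelled tissue was not checked by marker genes, since no identifier is annotated in the files.

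Some libraries stood apart or went against their labels. Of 1815 genes called between the cultivars at both E-L 35 and E-L 38, 1761 (97.0%) pointed in opposite directions at these stages. The share was 24.9% of the 1384 genes called at both E-L 32 and E-L 35. It was 75.7% of the 1672 called at both E-L 32 and E-L 38. At E-L 35 the identifier VIT_04s0008g04060 stood at 886 to 1359 CPM (counts scaled to a common library total) in Noble and at 0 to 0.550 CPM in Carlos. At E-L 32 it stood at 175 to 257 CPM in Noble and at 0 CPM in Carlos. At E-L 38 it stood at 0 to 2.79 CPM under the Noble label and at 1118 to 1623 CPM under the Carlos label. Results at E-L 38 are therefore given averaged over both labels, which does not depend on the cultivar names, as labelled, and crosswise. Noble E-L 32 replicate 1, Noble E-L 35 replicate 2 and Carlos E-L 35 replicate 3 were set apart from their replicates in an earlier analysis of these data. On the first principal component here, that Carlos library lay at 3.90, against 46.6 and 46.4 for replicates 1 and 2, and the first Noble replicate of E-L 32 was at -52.5, where the others were at -79.1 and -82.9. Noble E-L 35 replicate 2, at 32.0, lay between its replicates at 48.3 and 22.7, and its mean correlation with them was 0.971, against 0.976 and 0.974, so these values do not set it apart.

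The FLS identifiers differed in level by orders of magnitude. Compared per length, on the deposited TPM scale, VIT_18s0001g03430 had a median of 1248 TPM over 18 libraries, with a range of 458 to 2205 TPM. It ranked between 33 and 325 among all 27228 identifiers in every library. VIT_18s0001g03470 had a median of 0.550 TPM and at most 2.02 TPM, so it supplied between 0% and 0.380% of the summed TPM of both FLS genes. The other genes lay far below the abundant FLS, with medians of 14.3 TPM for HY5, 2.25 TPM for HYH, 2.16 TPM for GT5 and 0.945 TPM for MYBF1. GT6 had 0 expected counts in all 18 libraries. This allows up to 3 counts in any group, which is 0.0361 to 0.0444 CPM, and covers counting error only. All 18 values of each of the 7 genes were whole within 0.005. Whether reads of muscadine FLS copies match the intended identifier was not tested.

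**Figure D1:**
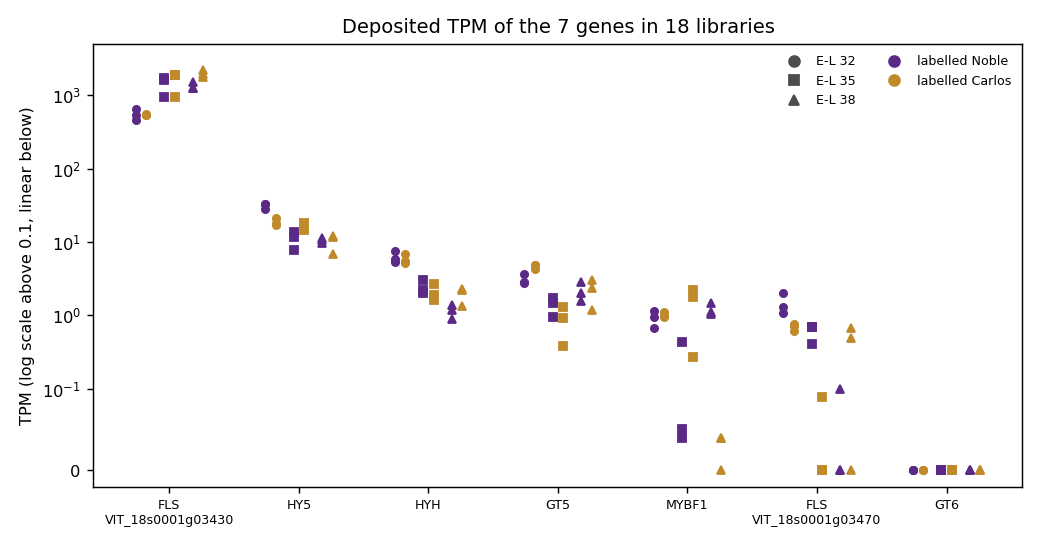
Deposited TPM of each gene in the 18 libraries (vertical axis, log scale above 0.1 TPM and linear below). Shapes mark the E-L stage and colours the cultivar label. VIT_18s0001g03430 lies between 458 and 2205 TPM, while VIT_18s0001g03470 does not exceed 2.02 TPM and GT6 is at 0 throughout.

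Levels below are CPM unless TPM is named, and CPM are comparable for one gene between libraries and not between genes. In bulk tissue, fewer cells of a type and less RNA per cell cannot be told apart. Of the 7 genes, 6 passed the filter on low counts and were tested with 17657 genes in all, and GT6 did not pass. The threshold for a call was an adjusted p of 0.05 (edgeR quasi-likelihood test, Benjamini-Hochberg over all genes tested). Adjusted p-values below are from this test. Ratios with a counting interval are separate estimates for groups of few counts. Their interval covers counting error of the low group only and leaves out the spread between libraries.

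**Figure D2:**
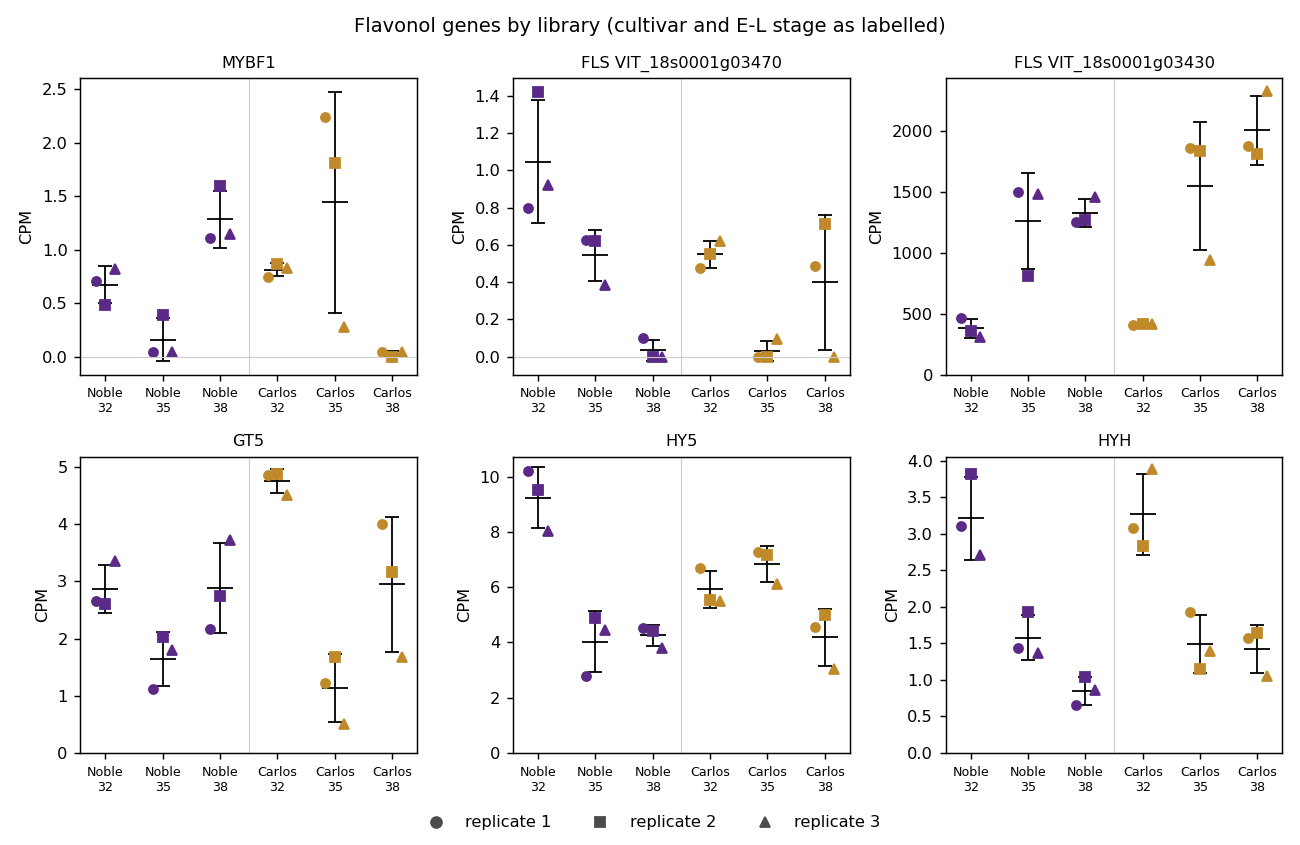
CPM of the 6 tested genes in each library (points, shape by replicate) with the group mean and SD (bars, n = 3), for cultivar and E-L stage as labelled. MYBF1 is low in Noble at E-L 35 and in libraries labelled Carlos at E-L 38, and VIT_18s0001g03430 is at 806 CPM or more in every library after E-L 32.

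From bunch closure to veraison, averaged over both cultivars, the abundant FLS gene rose while HYH, HY5, GT5 and the scarce FLS gene fell. For HY5 and the scarce FLS gene the libraries of the stages overlapped. Taken by cultivar, the fall was called in Noble alone for HY5 and in Carlos alone for GT5 and the scarce FLS gene. Of the 6 tested genes 1 rose and 4 fell. Over all genes 62.6% were called, 30.6% higher and 32.1% lower, so calls were common at this step and the counts of these genes say little by themselves. The log2 fold change was 1.82 ± 0.19 for VIT_18s0001g03430 (SE, adjusted p = 1e-06), -2.48 ± 0.70 for VIT_18s0001g03470 (adjusted p = 0.0061) and -1.43 ± 0.27 for GT5 (adjusted p = 0.00032). It was -1.07 ± 0.19 for HYH (adjusted p = 0.00019), -0.49 ± 0.15 for HY5 (adjusted p = 0.011) and -0.55 ± 0.49 for MYBF1, which was not called (adjusted p = 0.34). MYBF1 was called without the 3 libraries set apart earlier (-1.23, adjusted p = 0.014) and without Noble E-L 35 replicate 2 alone (-1.48, adjusted p = 0.030). Without Carlos E-L 35 replicate 3 the value for VIT_18s0001g03470 was -3.85, a size set by the fit because its Carlos E-L 35 group then held no counts.

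**Figure D3:**
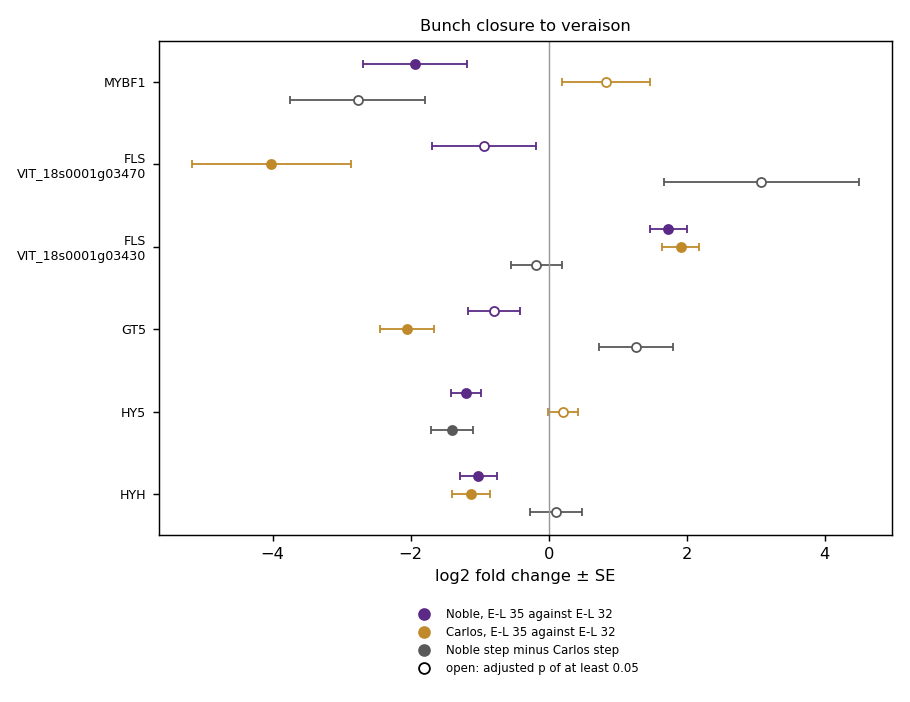
Log2 fold change with its SE (horizontal axis) of each tested gene from E-L 32 to E-L 35 in Noble and in Carlos, and the Noble step minus the Carlos step. Filled points had an adjusted p under 0.05. HY5 is the gene whose step was called as different between cultivars, at -1.40, and the abundant FLS rose by 1.74 in Noble and 1.91 in Carlos.

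MYBF1, the regulator, was scarce throughout, and it fell in Noble between bunch closure and veraison. In Noble it stood at 0.709, 0.488 and 0.822 CPM in replicates 1 to 3 at E-L 32 and at 0.0447, 0.393 and 0.0427 CPM at E-L 35. All Noble libraries were lower at veraison, and replicate 2 was the highest of them. In Carlos it stood at 0.745, 0.867 and 0.828 CPM at E-L 32 and at 2.24, 1.81 and 0.280 CPM at E-L 35. Carlos replicates 1 and 2 lay above and replicate 3 below all E-L 32 libraries, so these groups overlapped. These levels rest on few counts, 52 and 14 in the Noble groups and 67 and 104 in the Carlos groups. In Noble 4 of the 6 tested genes were called at this step, 1 higher and 3 lower, where 50.1% of all genes were called, 23.7% higher and 26.4% lower. MYBF1 was among them, at -1.93 ± 0.75 on the log2 scale (adjusted p = 0.043). This call was lost without Noble E-L 32 replicate 1 (-1.88, adjusted p = 0.085), replicate 2 (-2.15, 0.050) or replicate 3 (-1.80, 0.11), and without Noble E-L 35 replicate 1 (-1.53, 0.14) or replicate 3 (-1.52, 0.14). It was also lost in a fit to these groups alone (-1.92, adjusted p = 0.064). It was -3.80 without Noble E-L 35 replicate 2. In Carlos MYBF1 was not called with all libraries (0.83 ± 0.63, adjusted p = 0.28) and was called as higher without Carlos E-L 35 replicate 3 (1.33, adjusted p = 0.031) and without the 3 libraries set apart earlier (1.32, 0.0051). The difference between the cultivars' steps was -2.77 ± 0.98 and missed the threshold (adjusted p = 0.065). It passed without Carlos E-L 35 replicate 3 (-3.24, 0.0058), without Noble E-L 35 replicate 2 (-4.63, 0.0075), without the 3 libraries set apart earlier (-5.08, 0.00019) and with DESeq2 (-2.83, 0.035).

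The scarce FLS gene VIT_18s0001g03470 fell in Carlos to nearly no counts. In Noble it stood at 0.798, 1.42 and 0.924 CPM at E-L 32 and at 0.626, 0.622 and 0.384 CPM at E-L 35. These libraries did not overlap, but the log2 fold change of -0.94 ± 0.76 was not called (adjusted p = 0.32). In Carlos it stood at 0.477, 0.551 and 0.621 CPM at E-L 32, and at E-L 35 only replicate 3 had any count, at 0.0932 CPM from 2 counts. All Carlos libraries of E-L 35 were thus below those of E-L 32. The Carlos ratio of E-L 32 to E-L 35 was 19.1 (95% counting interval 5.29 to 158, adjusted p = 0.0084). Without Carlos E-L 35 replicate 3 the gene was at least 8.82-fold lower at E-L 35, with the group's empty libraries set at 3 counts together. In Carlos, too, 4 of the 6 tested genes were called, 1 higher and 3 lower, where 53.5% of all genes were called, 26.1% higher and 27.4% lower. The difference between the cultivars' steps was 3.08 ± 1.42 on the log2 scale and was not called (adjusted p = 0.15), except in a fit to the 4 groups of these steps alone (3.09, 0.047). Without Carlos E-L 35 replicate 3 it was 5.85 (adjusted p = 0.057), a size set by the fit because the Carlos E-L 35 group then held no counts.

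The abundant FLS gene VIT_18s0001g03430 rose in both cultivars. In Noble it stood at 465, 361 and 312 CPM at E-L 32 and at 1499.9, 806 and 1483 CPM at E-L 35. In Carlos the values were 404, 413 and 415 CPM and then 1860.4, 1839 and 942 CPM. No library of E-L 35 overlapped with E-L 32, and the lowest at E-L 35 in each cultivar was Noble replicate 2 and Carlos replicate 3. The gene was 3.33-fold higher in Noble (log2 1.74 ± 0.27, adjusted p = 1e-04) and 3.77-fold higher in Carlos (log2 1.91 ± 0.27, adjusted p = 3.4e-05). The steps differed by -0.18 ± 0.37 (adjusted p = 0.78), which does not show that they were equal.

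GT5, in Vitis vinifera a glucuronosyltransferase of flavonols, fell in Carlos. Its Carlos levels were 4.86, 4.88 and 4.51 CPM at E-L 32 and 1.22, 1.68 and 0.513 CPM at E-L 35, a log2 fold change of -2.06 ± 0.39 (adjusted p = 0.00046). In Noble the levels were 2.66, 2.60 and 3.35 CPM and then 1.12, 2.03 and 1.79 CPM. Libraries of the stages did not overlap in either cultivar, yet the Noble value of -0.80 ± 0.38 was not called (adjusted p = 0.092), nor was the difference between the steps, 1.26 ± 0.54 (adjusted p = 0.12). Without the 3 libraries set apart earlier the Noble value was -1.03 and was called (adjusted p = 0.039).

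HY5 was the gene whose early step differed between the cultivars. In Noble it stood at 10.2, 9.51 and 8.05 CPM at E-L 32 and at 2.77, 4.88 and 4.44 CPM at E-L 35. Every Noble library of veraison lay below every one of bunch closure, 2.29-fold lower in the fit (log2 -1.19 ± 0.22, adjusted p = 0.00043). In Carlos HY5 stood at 6.71, 5.55 and 5.50 CPM and then at 7.27, 7.15 and 6.11 CPM, which overlapped. The Carlos log2 fold change was 0.21 ± 0.22 (adjusted p = 0.44), whereas the deposited TPM went from 18.9 ± 2.19 to 16.9 ± 1.91 (SD, n = 3), so its direction depends on the scale. The Noble step minus the Carlos step was -1.40 ± 0.31 (adjusted p = 0.0063), and 17.6% of all genes were called for this difference, 8.69% higher and 8.91% lower. With all libraries edgeR called it alone of the 6 tested genes, and DESeq2 called MYBF1 as well. The difference was called in each of 19 alternatives, with values from -1.56 to -1.20 and adjusted p from 0.00011 to 0.021.

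HYH, unlike HY5, fell in both cultivars. Its levels were 3.10, 3.82 and 2.70 CPM in Noble at E-L 32 and 1.43, 1.93 and 1.37 CPM at E-L 35. In Carlos they were 3.07, 2.84 and 3.89 CPM and then 1.92, 1.15 and 1.40 CPM. Neither cultivar's stages overlapped, with log2 fold changes of -1.02 ± 0.27 in Noble (adjusted p = 0.0060) and -1.12 ± 0.27 in Carlos (adjusted p = 0.0029). The steps differed by 0.11 ± 0.38 (adjusted p = 0.88). Per length, HY5 exceeded HYH in every library. The ratio of their TPM was 5.11 ± 0.657 in Noble and 3.30 ± 0.695 in Carlos at E-L 32 (SD, n = 3), and 4.60 ± 1.13 and 8.55 ± 2.26 at E-L 35. At E-L 38 it was 9.46 ± 2.75 under the Noble label and 5.22 ± 0.149 under the Carlos label.

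Between veraison and maturity, as an average of both labels, GT5 rose and no other of the 6 tested genes was called. Over all genes 38.1% were called, 16.9% higher and 21.2% lower. GT5 stood at 2.16, 2.75 and 3.73 CPM under the Noble label and at 4.01, 3.16 and 1.68 CPM under the Carlos label, a log2 fold change from E-L 35 of 1.09 ± 0.27 (adjusted p = 0.0063). The stages overlapped, since Carlos-labelled replicate 3 lay below Noble E-L 35 replicates 2 and 3, at 2.03 and 1.79 CPM. The average step was 0.22 ± 0.18 for VIT_18s0001g03430 (adjusted p = 0.35), -0.48 ± 0.20 for HYH (0.072), -0.32 ± 0.16 for HY5 (0.12), -1.30 ± 0.65 for MYBF1 (0.13) and -0.20 ± 1.08 for VIT_18s0001g03470 (0.90). Single libraries changed some of these calls. MYBF1 was called without Carlos E-L 35 replicate 3 (-1.55, adjusted p = 0.031), but was at -0.37 without Noble E-L 35 replicate 2 (adjusted p = 0.74) and at -0.61 without the 3 libraries set apart earlier (0.52). HYH was called without Carlos E-L 35 replicate 2 (-0.56, adjusted p = 0.046) and HY5 without Noble E-L 35 replicate 1 (-0.42, 0.032).

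Over the whole span, E-L 38 against E-L 32 averaged over labels, the abundant FLS gene rose and both light-linked factors fell. The log2 fold change was 2.05 ± 0.19 for VIT_18s0001g03430 (adjusted p = 2e-07), -1.55 ± 0.20 for HYH (adjusted p = 5.3e-06) and -0.81 ± 0.16 for HY5 (adjusted p = 0.00026). For these genes every library of E-L 38 lay outside the range of E-L 32. MYBF1, at -1.85 ± 0.61 (adjusted p = 0.014), and VIT_18s0001g03470, at -2.68 ± 0.70 (adjusted p = 0.0031), were also called as lower, but their stages overlapped, and without Noble E-L 38 replicate 1 the latter value was -4.09. That Noble group then held no counts of VIT_18s0001g03470, so the size of -4.09 was set by the fit. For MYBF1 every library labelled Noble at E-L 38, at 1.11 CPM or more, lay above every library of E-L 32, at 0.867 CPM or less. The group labelled Carlos at E-L 38 held 2 counts of MYBF1, so its average joins a higher and a lower group. GT5 was not called (-0.34 ± 0.26, adjusted p = 0.25). Thus, as averages, 1 gene was called as higher and 4 as lower, where 70.5% of all genes were called, 34.9% higher and 35.6% lower.

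The late steps of MYBF1 and the scarce FLS gene differed between the labelled and the crosswise cultivar names. At E-L 38 MYBF1 stood at 1.11, 1.59 and 1.15 CPM under the Noble label and at 0.0405, 0 and 0.0420 CPM under the Carlos label, the reverse of the order at veraison. VIT_18s0001g03470 stood at 0.101, 0 and 0 CPM under the Noble label and at 0.486, 0.712 and 0 CPM under the Carlos label. The high and low groups of both genes at maturity therefore carried the opposite label from those at veraison. As labelled, MYBF1 rose in Noble (2.86 ± 0.74, adjusted p = 0.0086, and 4.72 without Noble E-L 35 replicate 2). In Carlos it fell (-5.46 ± 0.96, adjusted p = 0.00055), with a ratio of E-L 35 to E-L 38 of 51.2 (95% counting interval 14.2 to 423). As labelled, VIT_18s0001g03470 fell in Noble, with a ratio of 18.4 (5.08 to 152, adjusted p = 0.017), and rose in Carlos, with a ratio of 13.9 (3.84 to 115, adjusted p = 0.027). Its call in Noble was lost without Noble E-L 38 replicate 2 (adjusted p = 0.068) or replicate 3 (0.065), and without replicate 1 the fall was at least 8.64-fold. Its call in Carlos was lost without Carlos E-L 35 replicate 1 (adjusted p = 0.084) or replicate 2 (0.077) and without Carlos E-L 38 replicate 1 (0.062) or replicate 2 (0.11). The Carlos stages overlapped, since Carlos E-L 38 replicate 3 held 0 counts. Without Carlos E-L 35 replicate 3 the rise of the group mean was at least 6.40-fold, with the E-L 38 mean taken as exact. As labelled, 3 of the 6 tested genes were called in Noble and 4 in Carlos, against 32.5% and 40.5% of all genes. The difference between the labelled steps was called for MYBF1 (8.31 ± 1.22, adjusted p = 0.00012) and VIT_18s0001g03470 (-7.53 ± 1.66, adjusted p = 0.0028), where 33.4% of all genes were called.

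Set crosswise, none of these changes of MYBF1 and VIT_18s0001g03470 was called. Libraries labelled Carlos at E-L 38 against Noble at E-L 35 gave -2.42 ± 1.14 for MYBF1 (adjusted p = 0.14) and -0.45 ± 0.80 for VIT_18s0001g03470 (adjusted p = 0.72). Libraries labelled Noble at E-L 38 against Carlos at E-L 35 gave -0.18 ± 0.62 for MYBF1 (adjusted p = 0.87), and VIT_18s0001g03470 held 2 counts in each of these groups. In the former comparison edgeR called 0 of the 6 tested genes and DESeq2 0, with 2 at an unadjusted p under 0.05, against 21.8% of all genes called by edgeR. In the latter edgeR called 2 of 6, against 21.4% of all genes, with 3 at an unadjusted p under 0.05, and DESeq2 called 3. Those called by edgeR were GT5, higher (1.34 ± 0.39, adjusted p = 0.025), and HY5, lower (-0.68 ± 0.22, adjusted p = 0.038).

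GT5, HY5 and HYH each passed the test in 1 of the labelled late steps. GT5 lay above its E-L 35 level by 0.80 ± 0.38 under the Noble label (adjusted p = 0.12) and 1.37 ± 0.39 under the Carlos label (adjusted p = 0.012), and the latter call was lost without Carlos E-L 38 replicate 1 (1.08, 0.058). HY5 stood at 4.53, 4.43 and 3.81 CPM under the Noble label and at 4.58, 4.98 and 3.02 CPM under the Carlos label. It fell in Carlos as labelled (-0.71 ± 0.22, adjusted p = 0.019), a call lost without Carlos E-L 38 replicate 3 (-0.53, 0.078). HYH stood at 0.654, 1.03 and 0.861 CPM under the Noble label and at 1.58, 1.65 and 1.05 CPM under the Carlos label. It fell in Noble as labelled (-0.89 ± 0.29, adjusted p = 0.028). The call was lost, with the same direction, without Noble E-L 35 replicate 2 (-0.71, 0.11) or the 3 libraries set apart earlier (-0.71, 0.11). It was likewise lost without Noble E-L 38 replicate 1 (-0.74, 0.10) or replicate 3 (-0.89, 0.070), and crosswise (-0.15 ± 0.28, 0.74). The other crosswise comparison, libraries labelled Noble at E-L 38 against Carlos at E-L 35, gave -0.81 ± 0.29 for HYH, with no overlap between the groups, and was not called (adjusted p = 0.059), where the labelled Carlos step was -0.07. In a fit to the compared groups alone the calls of GT5 (1.34, adjusted p = 0.13), HY5 (-0.74, 0.087) and HYH (-0.89, 0.091) were lost, with fold changes close to those over all libraries. In that fit 17.4% of all genes were called under the Carlos label and 33.4% under the Noble label. VIT_18s0001g03470 did not pass the filter of that fit under either label, nor MYBF1 under the Carlos label, so these were not tested in it.

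**Figure D4:**
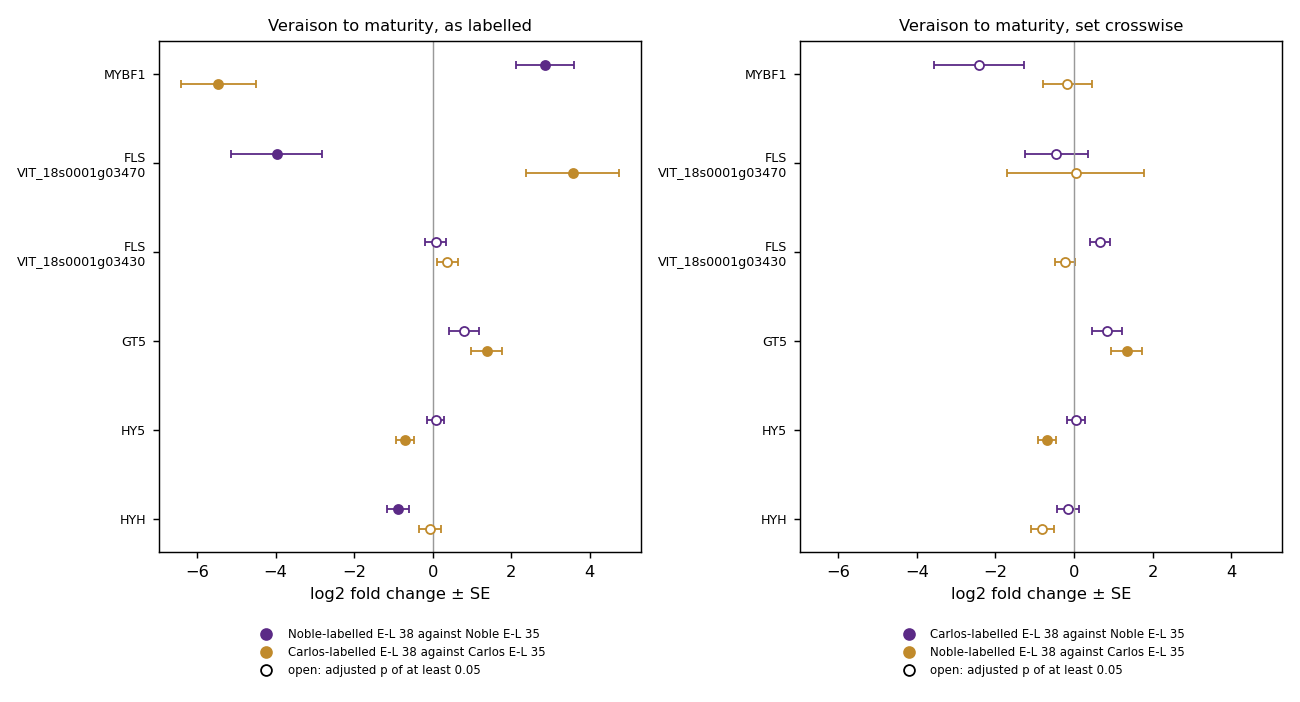
Log2 fold change with its SE (horizontal axis) from E-L 35 to E-L 38 for each tested gene, with cultivars as labelled (left) and with the E-L 38 libraries set crosswise (right). Filled points had an adjusted p under 0.05, and fitted values of MYBF1 and VIT_18s0001g03470 rest on groups with as few as 2 counts. As labelled MYBF1 lies at 2.86 and -5.46, and crosswise at -2.42 and -0.18.

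Between cultivars at bunch closure HY5 was the gene called among the 6 tested, where 27.5% of all genes were called, 13.8% higher and 13.6% lower in Noble. It was 1.56-fold higher in Noble (log2 0.64 ± 0.22, adjusted p = 0.038), with every Noble library above every Carlos one. The call was lost without Noble replicate 1 (0.58, adjusted p = 0.12) or replicate 2 (0.63, 0.096), without Carlos replicate 1 (0.74, 0.056), replicate 2 (0.60, 0.12) or replicate 3 (0.59, 0.12), and without the 3 libraries set apart earlier (0.56, 0.062). GT5 was lower in every Noble library than in any Carlos library but was not called (-0.72 ± 0.37, adjusted p = 0.16), except in a fit to these groups alone (-0.70, 0.0053), which also called VIT_18s0001g03470 as higher in Noble (0.96, 0.032).

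At veraison HY5 had the opposite order. It was lower in every Noble library than in any Carlos library (log2 -0.76 ± 0.22, adjusted p = 0.025), and 3 of the 6 tested genes were called, 1 higher and 2 lower in Noble, where 19% of all genes were called, 9.75% higher and 9.25% lower. MYBF1 was lower in Noble (-3.03 ± 0.74, adjusted p = 0.010), although Carlos replicate 3, at 0.280 CPM, lay below Noble replicate 2, at 0.393 CPM. VIT_18s0001g03470 was higher in Noble, at a ratio of 18.9 (95% counting interval 5.24 to 156, adjusted p = 0.025). All 3 calls were lost without Noble E-L 35 replicate 1 (MYBF1 at -2.64 with adjusted p = 0.050, HY5 at -0.56 with 0.11, VIT_18s0001g03470 with 0.066). Those of HY5 and VIT_18s0001g03470 were also lost without Carlos replicate 1 (-0.72 with adjusted p = 0.068 for HY5, 0.083 for VIT_18s0001g03470) or replicate 2 (-0.73 with 0.065, and 0.078). Without Noble E-L 35 replicate 2 MYBF1 was at -4.90, and without Carlos replicate 3 VIT_18s0001g03470 was at least 8.73-fold higher in Noble. A fit to these groups alone tested 4 of the genes, since MYBF1 and VIT_18s0001g03470 did not pass its filter. It called 0 of them with edgeR, with 1 at an unadjusted p under 0.05 and HY5 at -0.76 (adjusted p = 0.19), against 2.81% of all genes called in it, where DESeq2 on all libraries called 3.

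At maturity, as labelled, 2 of the 6 tested genes were called, 1 higher and 1 lower under the Noble label, where 23.4% of all genes were called, 11.4% higher and 12% lower. MYBF1 was higher under the Noble label, at a ratio of 45.5 (95% counting interval 12.6 to 376, adjusted p = 0.0012), and the groups did not overlap. VIT_18s0001g03470 was lower, at a ratio of 13.5 for Carlos over Noble (3.73 to 111, adjusted p = 0.044), and the groups overlapped because Carlos replicate 3 held 0 counts. This call was lost without Noble replicate 2 (adjusted p = 0.14) or replicate 3 (0.14), without Carlos replicate 1 (0.096) or replicate 2 (0.16), and with the replicate number as a block (0.071). Without Noble replicate 1 the mean of the gene was at least 6.34-fold lower under that label, with the Carlos-labelled mean taken as exact. VIT_18s0001g03430 was lower in every library labelled Noble than in any labelled Carlos, but was not called (-0.59 ± 0.26, adjusted p = 0.11). It was called without the 3 libraries set apart earlier (-0.59, adjusted p = 0.00042) and in a fit to these groups alone (-0.58, 0.017).

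In order of TPM over the groups, VIT_18s0001g03430 was lowest at E-L 32, at 540.4 ± 8.59 TPM in Carlos and 544 ± 94.3 TPM in Noble (SD, n = 3), which did not differ beyond their spread. It then stood at 1331 ± 145 TPM in libraries labelled Noble at E-L 38, 1429 ± 423 TPM in Noble at E-L 35, 1583 ± 558 TPM in Carlos at E-L 35 and 1988 ± 206 TPM in those labelled Carlos at E-L 38. Each of these later groups overlapped with the next in order, and in the last group replicates 1 and 3 lay above every library of E-L 35. HY5 was highest in Noble at E-L 32, at 31.5 ± 2.93 TPM, ahead of Carlos at E-L 32 and E-L 35. It lay between 10.2 and 11.2 TPM on average in the other 3 groups, which overlapped.

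As context, a list of other flavonoid pathway identifiers was set beside these genes. It covers the enzymes from chalcone synthase to the reductases and the glucosyltransferase of the anthocyanin and tannin branches, assigned from general knowledge of grape gene numbering and not from the files. Of its 13 identifiers 12 were analysed here. Averaged over cultivars, 6 rose and 1 fell from E-L 32 to E-L 35, where 30.6% of all genes were higher and 32.1% lower, with a median log2 fold change of 0.46 (-0.0018 over all genes). From E-L 35 to E-L 38 3 rose and 4 fell, beside 16.9% and 21.2% of all genes, with a median of 0.15 (-0.030 over all genes). Over the whole span 8 rose and 4 fell, beside 34.9% and 35.6% of all genes, with a median of 1.08 (-0.0082 over all genes).

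The gene most like each tested one over all 18 libraries was found by Pearson correlation of log2 CPM over the 15492 or 15493 other genes whose mean reached 1 CPM. The libraries fall into groups by stage and cultivar label and differ in depth, so these values are descriptions. The genes were chosen by this likeness, so levels they share with the tested gene are no separate result. VIT_17s0000g03910 was most like MYBF1 (r = 0.95). Its means were lowest in Noble at E-L 35, at 0.807 ± 0.946 CPM, and in libraries labelled Carlos at E-L 38, at 0.381 ± 0.183 CPM (SD, n = 3). Its highest Noble library at E-L 35, at 1.90 CPM, lay above the highest at E-L 32, at 1.79 CPM. VIT_01s0011g03330 was most like VIT_18s0001g03430 (r = 0.98), and it went from 41.1 ± 19.9 to 259 ± 72.1 CPM in Noble at the early step. The others were VIT_19s0085g01110 for VIT_18s0001g03470 (r = 0.91), VIT_13s0019g04170 for GT5 (r = 0.88), VIT_03s0091g00230 for HY5 (r = 0.89) and VIT_10s0003g03780 for HYH (r = 0.94). By Spearman correlation HY5 alone kept its partner.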

How the data were processed

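RNA of 18 berry libraries was extracted with TRIZOL and made into directional libraries, per the labels' protocols. STAR 2.7.6a and RSEM 1.3.3 were used, per the submitters' processing notes. The genome build, annotation and strand setting were not given in sources used here, so overlapping and antisense genes may share reads. The authors deposited an expected count, TPM and FPKM for each of 27228 identifiers per library, per the file headers. The deposited TPM values are relative to length and library total, and the deposited FPKM values were not used. None of the identifiers (0 matches) is in the table of 27334 Carlos genes given as reference, so no sequence or position is printed. No label says that replicates came from separate vines, so p-values measure the spread between these libraries, which may be technical. Every pair of replicates differed by more than sampling noise, with a chi-square of at least 2.95 for each degree of freedom.

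Expected counts were rounded, filtered with filterByExpr (17657 genes kept), scaled by TMM and fitted with 1 coefficient per group to all 18 libraries (edgeR 4.0.16, R 4.3.3). The SE is the size of the log2 fold change over the square root of F. CPM are rounded counts after TMM. For a group of 1 to 3 counts the other group's mean CPM was divided by its pooled CPM, with an exact Poisson 95% interval, and a group at 0 was set at 3 counts over its libraries. The other group's mean was taken as exact, so these intervals and bounds leave out the spread between replicates. Adjusted p-values beside them are from the edgeR fit. The genes named are the 7 members and, for each tested one, the gene most like it by log2 CPM (prior count 2), plus VIT_04s0008g04060, chosen after its values were seen. Members and lists were chosen with earlier results of these data known. Alternatives were DESeq2 1.42.0 (test and size factors), upper-quartile scaling, no filter, a replicate block, the compared groups alone, single libraries left out, the 3 libraries set apart earlier left out, and the crosswise labels. The last of these was run only for the late step within each cultivar. Replicate numbers were not taken as pairs: deviations of libraries with the same number correlated between -0.23 and 0.31, over 0.1 in 5 of 45 pairs.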

Additional observations from a re-analysis of the deposited data

Results flagged for a closer look

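The early step of HY5 (VIT_04s0008g05210) differed between cultivars by a test of the difference itself: the Noble step minus the Carlos step was -1.40 ± 0.31 on the log2 scale (edgeR, adjusted p = 0.0063). All 3 Noble libraries of veraison lay below all 3 of bunch closure, while the Carlos stages overlapped.

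As labelled, the late step of MYBF1 (VIT_07s0005g01210) differed between cultivars by 8.31 ± 1.22 (edgeR, adjusted p = 0.00012), and by 10.18 without Noble E-L 35 replicate 2. That of VIT_18s0001g03470 differed by -7.53 ± 1.66 (edgeR, adjusted p = 0.0028). Leaving out single libraries gave -10.28 (Carlos E-L 35 replicate 3), -10.34 (Noble E-L 38 replicate 1), -6.94 (Carlos E-L 35 replicate 1 or Noble E-L 38 replicate 3) and -6.82 (Carlos E-L 38 replicate 2). For -10.28 and -10.34 the group that lost a library held no counts, so their size was set by the fit and not measured. The differences of MYBF1 and VIT_18s0001g03470 both rest on the cultivar names at E-L 38, and set crosswise neither gene's late step was called.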

How the results depend on the processing

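Of 35 calls of single genes over 12 comparisons, 22 kept their direction and their side of the threshold under every alternative run, 12 were lost under some and 1 was reversed. The crosswise labels were run only for the late step within each cultivar. The 22 therefore include MYBF1 between labels at E-L 38, and the late-step differences of MYBF1 and VIT_18s0001g03470, without that alternative. Exchanging the names reverses the sign of every comparison between labels at E-L 38, which these counts do not cover. Where no reason is given, the cause was not tested. Numbers of genes called are out of 6 tested unless given. Set crosswise at E-L 38, the late step gave 0 called genes for Noble (3 as labelled, 2 at an unadjusted p under 0.05) and 2 for Carlos (4 as labelled), with MYBF1 at -2.42 and VIT_18s0001g03430 at -0.22. Without the 3 libraries set apart earlier, 0 genes were called between cultivars at E-L 32 (1 with them, 2 at an unadjusted p under 0.05) and 2 for the difference of the early steps (1 with them). A fit to the compared groups alone called 1 of 5 tested for the late step in Noble (3 over all libraries), 0 of 4 in Carlos (2 at an unadjusted p under 0.05, and 4 called over all libraries), 0 of 4 between cultivars at E-L 35 (1 at an unadjusted p under 0.05, and 3 called over all libraries), 3 at E-L 32 and 2 for the difference of the early steps. The share of all genes called in these fits was 33.4%, 17.4%, 2.81%, 54.9% and 15.3%, against 32.5%, 40.5%, 19%, 27.5% and 17.6% over all libraries. The fits that tested fewer genes dropped VIT_18s0001g03470, MYBF1 or both by the filter on low counts. DESeq2 also called 2 for the difference of the early steps. Between labels at E-L 38, 1 gene was called with no filter and 1 with the replicate block (2 without), and the block changed no other count by over 1.5 times.

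With single libraries left out, the number called between cultivars ran from 0 to 1 at bunch closure, from 0 to 3 at veraison and from 1 to 2 at maturity. It ran from 1 to 2 for the average late step and the difference of the early steps, from 1 to 3 for the late step in Noble and from 2 to 4 in Carlos. All values that changed direction, other than that of MYBF1, had not been called. For HYH, upper-quartile scaling gave 0.05 between cultivars at E-L 32, and leaving out the 3 libraries gave -0.14 at E-L 35 and -0.14 for the difference of the early steps. That last alternative put the average late step of VIT_18s0001g03470 at 1.22 and that of VIT_18s0001g03430 at -0.03, and the Noble late step of the latter at -0.17. With single libraries left out, HYH ran from -0.16 to 0.12 between cultivars at bunch closure, from -0.09 to 0.31 at veraison, from -0.07 to 0.34 for the difference of the early steps and from -0.22 to 0.15 for the Carlos late step. VIT_18s0001g03430 ran from -0.28 to 0.02 between cultivars at E-L 32, from -0.44 to 0.06 for the difference of the early steps and from -0.17 to 0.22 for the Noble late step, and VIT_18s0001g03470 from -1.61 to 1.17 for the average late step. The values -1.61, 1.17 and 1.22 of VIT_18s0001g03470 came from fits with no counts in 1 group, which set their size. HY5 ran from -0.13 to 0.24 for the Noble late step and from -0.15 to 0.18 between labels at E-L 38, where GT5 ran from -0.30 to 0.26. Over all libraries MYBF1 had 326 counts, VIT_18s0001g03470 199 and GT6 0, so GT6 could not be tested.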
